A study of Mus musculus with 4 samples.

Results

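Single-cell transcriptomes of the adult mouse brain were examined for 9 genes of a set named for responses to glucocorticoid hormones and metals. They were Fkbp5, Sgk1, Tsc22d3, Txnip, Cdkn1a, Pdk4 and the metallothioneins Mt1, Mt2 and Mt3, chosen by symbol, and each had 1 row among the 31053 genes of the count tables. Whole brains came from 4 male C57BL/6J mice at postnatal day 90, and each brain was dissociated with enzymes and gave 1 droplet library. In 2 animals nothing was added, and in the other 2 a cocktail of inhibitors was present: actinomycin D and triptolide, which block transcription, in the perfusion, dissection and digestion buffers, and anisomycin, which blocks translation, in dissection and digestion. The 3 drugs were always given together, so their effects cannot be told apart, and the labels place all 4 libraries in 1 batch. The comparison asked which of the 9 genes differed in level when the brain was taken apart without inhibitors, and in which cells.

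Glucocorticoids pass into cells and bind a receptor that moves to the nucleus, attaches to DNA and raises or lowers the transcription of its target genes. Astrocytes, endothelial cells, oligodendrocytes and microglia of the brain all carry this receptor, and stress of the living animal is a classical trigger of the hormone. Metallothioneins are short proteins rich in cysteine that bind zinc and copper. The genes Mt1 and Mt2 are switched on by a zinc-sensing transcription factor (MTF-1) as well as by glucocorticoids.

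The 3 metallothionein genes lie side by side on 1 strand of chromosome 8 of the mouse genome (mm10, the build of the counts). Mt3 is at chr8:94152607-94154146, Mt2 at chr8:94172664-94173568 and Mt1 at chr8:94179082-94180327, with 18517 bases between Mt3 and Mt2 and 5513 between Mt2 and Mt1. The others are scattered. Fkbp5 (chr17:28399094-28517527, minus strand) and Cdkn1a (chr17:29090976-29100727) share a chromosome, Sgk1 is at chr10:21882184-21999903, Tsc22d3 at chrX:140539528-140600659 on the minus strand, Txnip at chr3:96557957-96561883 and Pdk4 at chr6:5483351-5496309 on the minus strand. These spans are those of the whole annotated genes, exons and introns together.

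All 9 genes had an entry among the RefSeq promoters of the same assembly (GRCm38.p6), with 17 start sites in all. Windows from 250 bases before to 30 bases after each start were searched on both strands for 4 motifs. They were the metal response element core, spelled TGCACNC or TGCGCNC, the glucocorticoid response element (GNACA, any 3 bases, then TGTNC), the carbohydrate response element (CACGNG, any 5 bases, then CACGNG) and the FoxO site GTAAACA. Of 32541 promoter windows in the genome, 24.2% held a metal core, 0.439% the glucocorticoid element, 0.0492% the carbohydrate element and 3.49% the FoxO site. The metallothioneins are shown because their windows differ in metal cores although the genes are neighbours, and Txnip and the fifth of 6 Sgk1 starts because they are the members with a glucocorticoid element outside that cluster. Capitals mark the matched letters, and each sequence runs 5′ to 3′ along the plus strand, which is the gene's own strand in all 5.
Mt1, chr8:94178839-94179118: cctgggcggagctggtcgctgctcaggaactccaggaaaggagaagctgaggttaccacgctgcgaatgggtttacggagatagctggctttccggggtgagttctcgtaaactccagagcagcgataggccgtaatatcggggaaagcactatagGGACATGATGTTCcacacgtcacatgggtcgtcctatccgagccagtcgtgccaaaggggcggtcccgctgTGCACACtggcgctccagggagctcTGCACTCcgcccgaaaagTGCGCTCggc
Mt2, chr8:94172368-94172647: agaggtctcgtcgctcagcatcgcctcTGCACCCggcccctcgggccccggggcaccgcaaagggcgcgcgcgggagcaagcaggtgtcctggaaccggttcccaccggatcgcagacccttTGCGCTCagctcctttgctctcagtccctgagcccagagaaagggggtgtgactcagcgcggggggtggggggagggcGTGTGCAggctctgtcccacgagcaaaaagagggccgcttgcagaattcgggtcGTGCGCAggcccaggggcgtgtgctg
Mt3, chr8:94152357-94152636: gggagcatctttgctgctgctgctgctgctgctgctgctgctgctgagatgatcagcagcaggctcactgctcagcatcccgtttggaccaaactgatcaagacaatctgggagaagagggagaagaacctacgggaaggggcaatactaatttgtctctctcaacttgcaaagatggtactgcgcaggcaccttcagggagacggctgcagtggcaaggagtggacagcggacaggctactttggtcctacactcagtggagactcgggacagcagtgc
Txnip, chr3:96557707-96557986: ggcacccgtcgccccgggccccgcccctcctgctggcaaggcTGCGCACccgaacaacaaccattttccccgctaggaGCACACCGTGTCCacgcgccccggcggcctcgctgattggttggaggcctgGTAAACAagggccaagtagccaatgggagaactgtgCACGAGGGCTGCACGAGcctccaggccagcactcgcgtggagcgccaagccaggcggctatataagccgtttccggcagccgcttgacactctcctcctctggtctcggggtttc
Sgk1, chr10:21993640-21993919: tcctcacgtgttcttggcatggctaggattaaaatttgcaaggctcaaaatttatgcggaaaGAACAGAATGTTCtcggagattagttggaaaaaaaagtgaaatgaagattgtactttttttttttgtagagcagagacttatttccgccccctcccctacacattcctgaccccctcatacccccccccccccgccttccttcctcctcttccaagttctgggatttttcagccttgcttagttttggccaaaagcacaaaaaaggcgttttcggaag

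Mt2 held 4 metal cores, at 223, 128 and 50 bases before its start and 4 bases after it. Mt1 held 3, at 23 bases before and 2 and 20 bases after the start, and it also had a glucocorticoid element 94 bases before it. Windows with 3 or more metal cores were rare, 568 in the genome or 1.75%. No match to any of the 4 motifs was present in the Mt3 window. The Txnip window had 1 match to each of the 4, including the carbohydrate element at 85 bases before the start, the class of site through which glucose is known to raise Txnip. Among the 6 Sgk1 starts, 1 had a glucocorticoid element 188 bases before it and another had a metal core 11 bases after it. The windows of Fkbp5, Tsc22d3, Cdkn1a and Pdk4 held none of these letters. A match is a description of letters in a short window, and it does not show that a factor binds there.

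**Figure D1:**
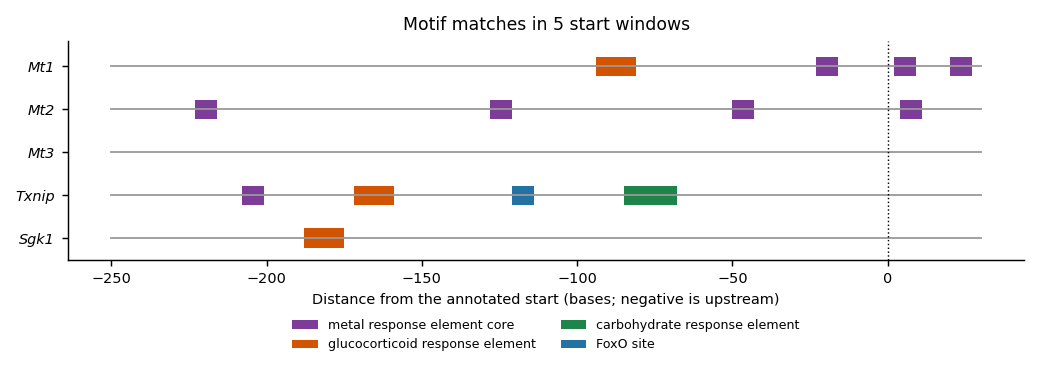
Position of motif matches in the 5 promoter windows printed above. The horizontal axis is the distance in bases from the RefSeq start, each row is a window and each mark is a match to 1 of the 4 motifs. Mt2 and Mt1 carried 4 and 3 metal response element cores, and Mt3 carried none.

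Reads that carry the same molecular tag, or UMI, stand for 1 RNA molecule, and these UMIs were summed per animal over 9861 cells that passed filters and doublet removal, 2089 to 2810 cells and 4519322 to 6091745 UMIs per animal. A total of 14 cell classes were called from clusters by fixed marker genes, and they are named with the ending -like because no annotation of single cells was used. The 9 classes with at least 20 cells in every animal were compared between groups: 3233 microglia-like and 164 macrophage/monocyte-like cells, 1953 astrocyte-like and 890 oligodendrocyte-like cells, 1685 endothelial-like and 341 mural-like cells, 620 choroid plexus-like and 184 ependymal-like cells, and 320 neuron-like cells. Between any 2 libraries 6 to 10 cell barcodes were shared. Levels are a gene's UMIs per 1000000 UMIs of the class in the animal (CPM). For each value below, the animals are given in the order without inhibitors 1 and 2, then with inhibitors 1 and 2.

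Each of the 9 genes had its own distribution over the brain. Metallothioneins led in abundance: 66946 UMIs of Mt1, 37709 of Mt3 and 19795 of Mt2 were counted in all cells, against 145 of Pdk4 and 662 of Fkbp5. Sgk1 (3580), Tsc22d3 (6759), Cdkn1a (4052) and Txnip (2273) lay between. Because the assay tags the 3′ ends of transcripts, a level does not depend on gene length in the way of whole-transcript counts.

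Mt1 and Mt2, the metal-inducible forms found in most tissues, were highest in astrocyte-like cells. Mt1 reached 11825 ± 858 CPM there (mean ± SD, n = 4 animals) and 10237 ± 367 in ependymal-like cells, and the ranges of these classes did not overlap. The other 7 classes had means between 815 and 1721 CPM of Mt1, and each overlapped its neighbour in rank. Mt2 followed the same leaders, with 3994 ± 346 CPM in astrocyte-like and 3058 ± 205 in ependymal-like cells, and was lowest in choroid plexus-like cells at 129 ± 54.8. Astrocyte-like cells held 57.1% of all Mt1 and 65.5% of all Mt2 UMIs.

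Mt3, a form enriched in the nervous system and first described as a growth inhibitory factor for neurons, had another order. It was highest in ependymal-like cells at 9480 ± 261 CPM, then in astrocyte-like cells at 5909 ± 354, choroid plexus-like cells at 3671 ± 866 and neuron-like cells at 872 ± 154. None of these 4 ranges overlapped the next, whereas the lower 5 classes lay together between 172 and 317 CPM. The contrast with Mt1 was sharpest in the choroid plexus-like class, which had 320 to 466 Mt3 UMIs for every 100 Mt1 UMIs in the 4 animals. Ependymal-like cells had 90.1 to 94.3 and astrocyte-like cells 46.3 to 54.0. In endothelial-like cells the ratio was 11.5 to 17.4. The lowest choroid plexus-like ratio was above the highest of every other class.

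**Figure D2:**
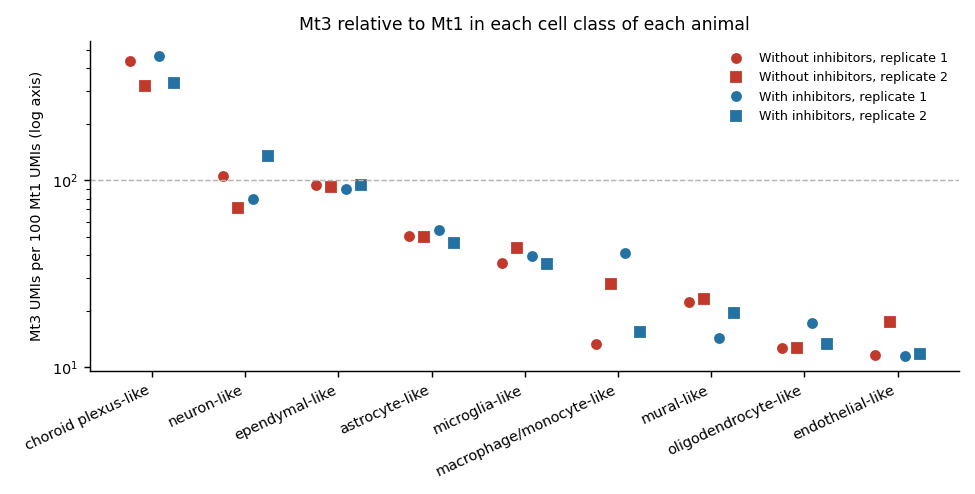
Mt3 UMIs per 100 Mt1 UMIs in each of the 9 cell classes, on a log axis, with 1 point per animal. Choroid plexus-like cells stand highest at 320 to 466, and endothelial-like and oligodendrocyte-like cells lowest.

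Mt1 was detected in every class. In microglia-like and mural-like cells, the classes with the lowest mean Mt1 level, it was at 6.89% and 7.18% of its astrocyte-like level. The 11 astrocyte markers had a median of 2.17% and 2.67% of their astrocyte-like level in the same classes, with a highest single marker of 11.2% and 17.04%. Whether these low metallothionein levels came from the cells themselves was not tested.

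Among the glucocorticoid targets, Fkbp5, a co-chaperone that lowers the receptor's affinity for hormone, was sparse. Microglia-like cells had 73.7 ± 8.86 CPM and held 50.9% of all Fkbp5 UMIs, and no other tested class passed 100 UMIs. Fibroblast-like cells, of which 19 to 38 were found per animal, were too few to be tested in every animal. Their Fkbp5 level was 245, 266, 301 and 236 CPM from 167 UMIs in all, above every tested class in each animal. In those cells the groups overlapped.

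Tsc22d3, the glucocorticoid-induced leucine zipper, was broad. Astrocyte-like cells (624 ± 66.6 CPM) and endothelial-like cells (591 ± 72.4) overlapped, and macrophage/monocyte-like (429 ± 74.0) and mural-like cells (397 ± 80.4) came next. It was lowest in choroid plexus-like cells at 31.2 ± 7.41 CPM. Sgk1, a kinase of ion channels and transporters that hormones and cell stress both induce, had another order. Oligodendrocyte-like (355 ± 144 CPM), microglia-like (304 ± 89.95) and choroid plexus-like cells (226 ± 37.8) led with overlapping ranges, and astrocyte-like cells had 6.53 ± 3.48 CPM from 20 UMIs.

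Txnip, which binds thioredoxin and curbs glucose uptake, was highest in macrophage/monocyte-like (329 ± 76.6 CPM), ependymal-like (297 ± 65.7) and microglia-like cells (239 ± 55.3). These 3 ranges overlapped, and the next class, mural-like, was at 118 ± 39.7. The macrophage/monocyte-like class also held neutrophil markers, given below, and their part in its Txnip level was not tested. Cdkn1a, the cell cycle inhibitor p21, was highest in endothelial-like cells, with 738 ± 110 CPM and 67.2% of all its UMIs. Mural-like cells had 361 ± 71.9, and neither range overlapped the next. In the mural-like class 343 of 362 Cdkn1a UMIs lay in a cluster of 167 cells that also passed all 8 endothelial markers, at 454 CPM. A second mural-like cluster, of 139 cells, was at 32.9 CPM from 5 UMIs, near the microglia-like level of 33.1. The remaining Cdkn1a UMIs of the class lay in a mural-like cluster of 35 cells led by Acta2 and Tagln. Pdk4, a kinase that shuts off pyruvate dehydrogenase, was rare, with 71 of its 145 UMIs in astrocyte-like cells (21.6 ± 3.796 CPM).

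**Figure D3:**
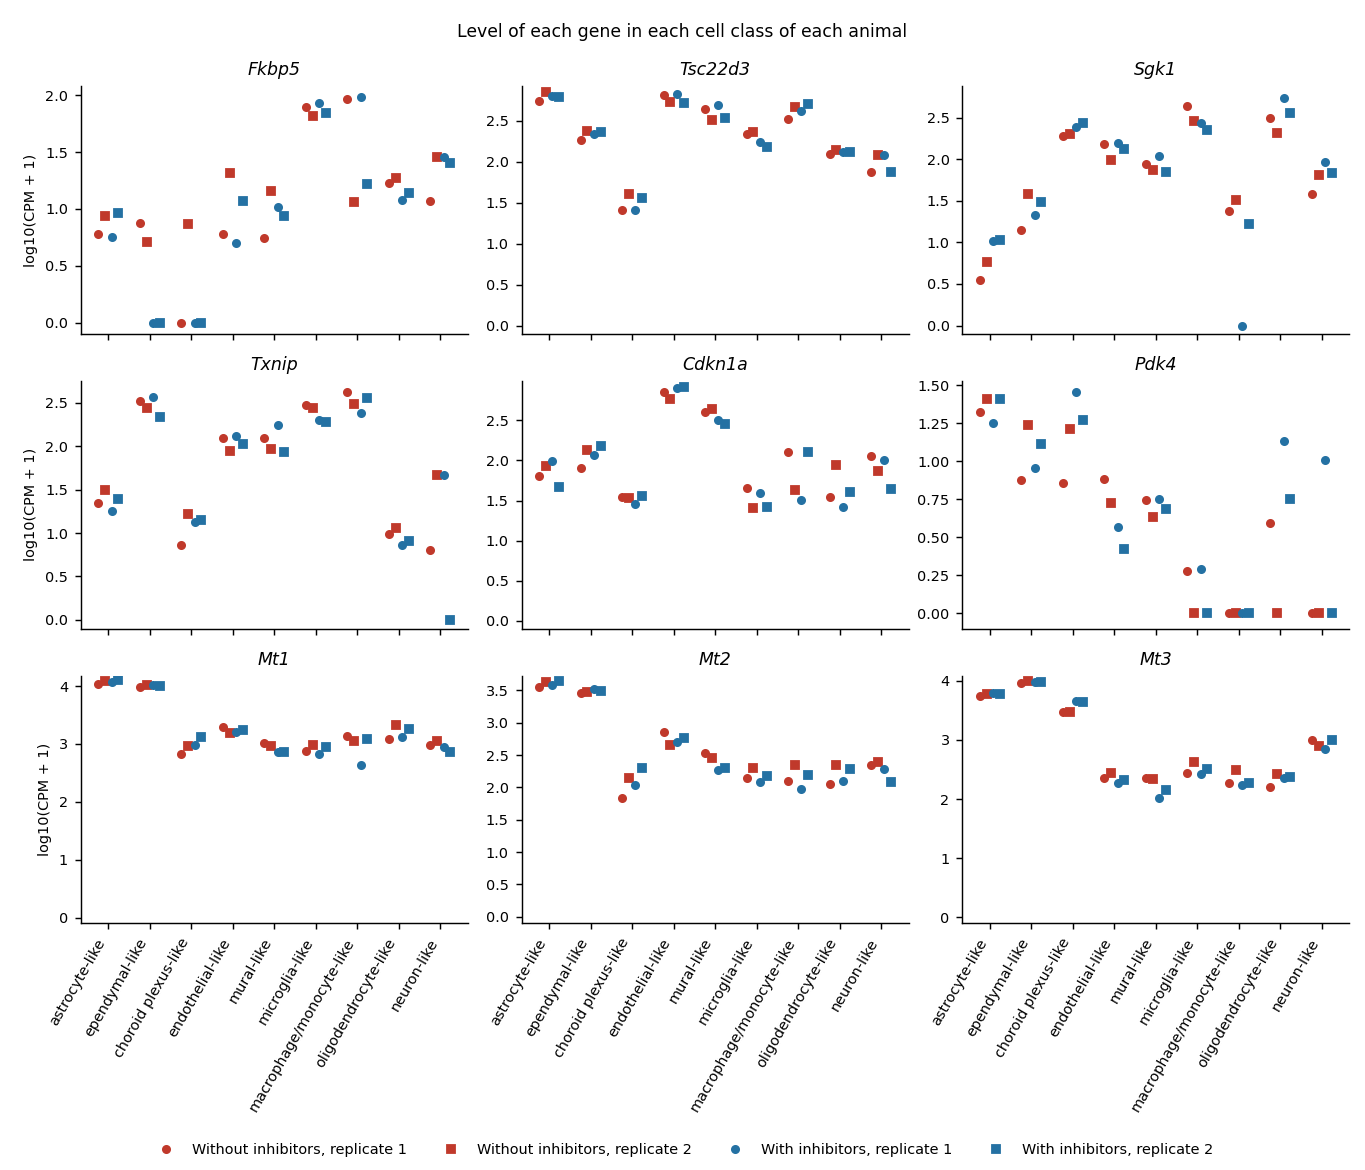
Level of each of the 9 genes by cell class and animal, as log10(CPM + 1), with red points for the group without and blue points for the group with inhibitors, circles for replicate 1 and squares for replicate 2. Astrocyte-like and ependymal-like cells stand apart for Mt1 and Mt2, endothelial-like cells and the mural-like class, through its cluster with endothelial markers, for Cdkn1a, and oligodendrocyte-like, microglia-like and choroid plexus-like cells for Sgk1.

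Genes whose levels were most like each member were ranked by Pearson's r of log2(CPM + 10) over 54 sums of class and animal, among 9980 genes. These sums share libraries and depth, so r is a description. Mt1 and Mt2 were each other's closest match (r = 0.90), followed by the astrocyte water channel gene Aqp4 (r = 0.87) and Cbs for Mt1, and by Gstm1 (r = 0.88) and Aqp4 for Mt2. Mt3 was closest to Chchd10, a mitochondrial protein gene (r = 0.92), Klhdc7a and Ppargc1a. Cdkn1a came with Sgms1 (r = 0.87), Fas (r = 0.85) and the endothelial organic anion transporter gene Slco1a4 (r = 0.85). The nearest genes were Serpinf1 (r = 0.81), Cxcl16 and Tmem86a for Fkbp5 and Tgfa (r = 0.69), Tbc1d14 and Card19 for Sgk1. For Tsc22d3 they were Nfkbia (r = 0.73), Mknk2 and Pttg1ip, for Txnip Rnase4 (r = 0.82), Msn and B4galt1, and for Pdk4 Nwd1 (r = 0.83), A2m and Klhdc7a. Among the members themselves, Mt3 with Pdk4 (r = 0.76) came next after Mt1 with Mt2, and Sgk1 with Mt2 was the most negative pair (r = -0.48).

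With all cells of an animal summed, none of the 9 members passed the test, which required an adjusted p under 0.05 (edgeR's quasi-likelihood test, Benjamini-Hochberg adjustment over all genes) and a log2 fold change beyond 0.58. The background was 0.0363% of 13786 genes. None had an unadjusted p under 0.05 either, and DESeq2 called 0. Log2 fold changes, always of the group without inhibitors over the group with them, ran from -0.28 for Cdkn1a to 0.18 for Txnip. Cdkn1a was the member without overlap in that sum, at 158 and 185 CPM without inhibitors and 202 and 239 with them (adjusted p = 0.752), where 29.8% of all genes were lower without overlap. All-cell sums also move with the share of each class.

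Within classes, 59 of 81 pairs of gene and class had enough UMIs to be tested, and 1 passed, Txnip in microglia-like cells, beside 0.539% of all 49552 pairs. An unadjusted p under 0.05 was reached by 14 of the 59, beside 7.07% of all pairs. Groups did not overlap in 17 pairs, 11 higher and 6 lower without inhibitors, beside 35.4% of all pairs. The 14 pairs with an unadjusted p under 0.05 were spread unevenly. Microglia-like and mural-like cells had 4 each, of 8 and 7 members tested. The choroid plexus-like, endothelial-like and oligodendrocyte-like classes had 2 each, of 6, 8 and 7 tested. Among all genes the same limit was reached by 6.4% in microglia-like, 6.53% in mural-like, 19.3% in choroid plexus-like, 5.54% in endothelial-like and 9.49% in oligodendrocyte-like cells. No member reached it in astrocyte-like, ependymal-like, neuron-like or macrophage/monocyte-like cells, beside 4.76%, 3.75%, 2.2% and 6% of all genes. Median log2 fold changes of the members tested were 0.32 in microglia-like cells, 0.49 in mural-like cells, -0.23 in choroid plexus-like cells and -0.01 in oligodendrocyte-like cells, where the medians of all genes tested lay between -0.01 and 0.01.

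Txnip in microglia-like cells was at 299 and 273 CPM without inhibitors and 196 and 188 with them, from 203 to 345 UMIs per animal. Both animals without inhibitors were above both others. The log2 fold change was 0.60 ± 0.11 (SE, adjusted p = 6.60e-05 by edgeR), in a class where 0.469% of genes passed. After thinning each cell to 1000 UMIs, which left out 485 shallower cells, 24.7% and 23.2% of microglia-like cells had a Txnip UMI without inhibitors and 18.2% and 18.5% with them (31.6%, 30.04%, 24.8% and 22.03% before thinning). Oligodendrocyte-like cells, where Txnip was lowest, had at most 2.01% at that depth. The change sat close to the fold limit: it was 0.57 with total UMIs as the only scaling and 0.54 without animal 1 of the group without inhibitors, both under the limit, and DESeq2 gave 0.60 with an adjusted p of 0.113. Txnip is also on an activation list that the study drew from sorted microglia of other animals. Together with a second list, which the study chose on these same 4 libraries and which is therefore not independent evidence, the activation genes numbered 34, and 22 of the 31 tested passed in these cells.

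In the other 5 classes tested, Txnip had log2 fold changes of -0.19 to 0.36. Whether its group effect differed among the 9 classes was tested with an interaction term over all class sums, where 0.41% of 12452 genes had an adjusted p under 0.05. For Txnip that adjusted p was 0.938, so an effect particular to microglia-like cells was not shown.

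Tsc22d3 in the same cells was at 214 and 231 CPM without inhibitors and 175 and 150 with them. The groups did not overlap, and the log2 fold change of 0.49 ± 0.12 (adjusted p = 0.0103 by edgeR) stayed under the fold limit of 0.58. Without animal 2 of the group without inhibitors the adjusted p was 0.338, without animal 2 of the other group it was 0.702, and DESeq2 gave 1.00. In the other 8 classes Tsc22d3 lay between -0.23 and 0.36. Mt2 in microglia-like cells had 139 and 200 CPM without and 119 and 149 with inhibitors, which overlapped (log2 fold change 0.37 ± 0.13, adjusted p = 0.434), and the fold change ran from 0.076 without animal 2 to 0.60 without animal 1 of the group without inhibitors, where it passed. Fkbp5, the remaining classical target, was at 77.6 and 64.1 against 84.0 and 69.1 CPM in these cells, with a log2 fold change of -0.08 ± 0.17.

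Sgk1 was the member whose difference depended on the cell class. Its interaction had F = 7.80 and an adjusted p of 1.503e-07 (edgeR), and it was 1 of 9 members to pass. In microglia-like cells it was at 432 and 287 CPM without inhibitors and 273 and 223 with them. Both animals without inhibitors were above both others, and the log2 fold change was 0.57 ± 0.17, with an unadjusted p of 0.00592 and an adjusted p of 0.420. In oligodendrocyte-like cells the order was turned, at 314 and 204 CPM without and 549 and 354 with inhibitors, again without overlap. There the log2 fold change was -0.78 ± 0.25, with an unadjusted p of 0.0207 and an adjusted p of 0.404 in a class where 0.199% of genes passed. Genes without overlap were common: 14.6% of genes in microglia-like cells were higher and 19.8% lower without inhibitors in this way, and 17.5% in oligodendrocyte-like cells were lower.

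The direct contrast of these effects was 1.39 ± 0.19 on the log2 scale (adjusted p = 3.74e-10 by edgeR over 12452 genes), where 0.0642% of genes passed. This pair was taken because its values lay farthest apart among the 5 classes in which Sgk1 could be tested alone. Its p makes no allowance for that choice and is given as a description. Choroid plexus-like, endothelial-like and mural-like cells had -0.20, -0.25 and -0.09. The interaction was lost when animal 2 of the group with inhibitors was left out (adjusted p = 0.385), and the microglia-like difference fell to 0.25 without animal 1 of the group without inhibitors, the library with the highest value. The values of both classes moved with single animals. Leaving out animal 2 of the group without inhibitors or animal 1 of the other group gave 0.84 and 0.71 in microglia-like cells, which passed, and -0.53 and -0.49 in oligodendrocyte-like cells, which did not. Leaving out the other animal of each group gave -1.14 and -1.06 in oligodendrocyte-like cells, which passed.

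Sums behind the Sgk1 values were 479, 363, 283 and 268 UMIs in microglia-like and 215, 116, 351 and 304 in oligodendrocyte-like cells. Thinned to 1000 UMIs per cell, 27.1% and 18.0% of oligodendrocyte-like cells had a Sgk1 UMI without inhibitors and 48.7% and 30.03% with them (54.7%, 43.4%, 72.7% and 53.2% before thinning), which did not overlap. For microglia-like cells the shares were 28.6% and 18.3% against 23.2% and 18.4% (35.3%, 25.8%, 29.5% and 21.9% before), which overlapped. Astrocyte-like cells, the class lowest in Sgk1, had 0.240% to 0.966% at the same depth. Median UMIs per cell before thinning were 2448 to 3114 in oligodendrocyte-like, 1268 to 1468 in microglia-like and 1415 to 1666 in astrocyte-like cells.

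Oligodendrocyte-like cells formed a cluster of 746 led by Opalin and a cluster of 144 led by Klk6. Sgk1 was at 393 and 226 CPM without and 645 and 411 with inhibitors in the first, without overlap. In the second it was at 127 and 114 against 319 and 81.6, which overlapped. The sum of 7 oligodendrocyte markers in the class was 39738 and 40074 CPM without and 35842 and 35772 with inhibitors, so it moved in the opposite direction to Sgk1, and its part in the result was not tested. The 8 microglia markers summed to 14298 to 16391 CPM in microglia-like cells. Erythrocyte markers there summed to 505 and 767 CPM without and 143 and 275 with inhibitors, without overlap and in the direction of Txnip and Sgk1, and in oligodendrocyte-like cells to 305 and 562 against 92.3 and 162, opposite to Sgk1. Their part in these values was not tested.

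**Figure D4:**
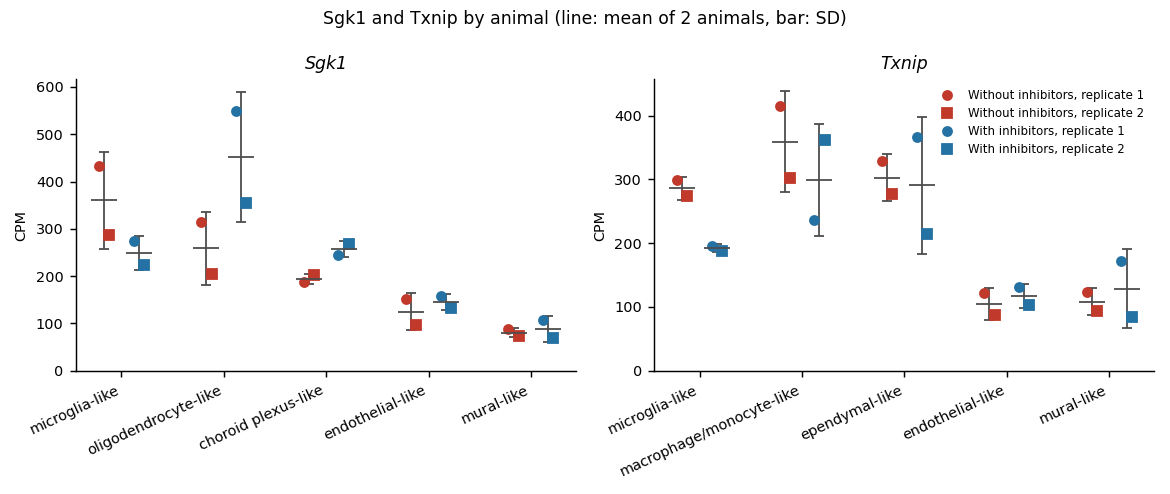
Sgk1 and Txnip level in CPM by cell class, with 1 point per animal and the mean ± SD of each group of 2 animals. Sgk1 was higher without inhibitors in microglia-like cells and lower in oligodendrocyte-like cells, and Txnip was higher without inhibitors in microglia-like cells.

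The 3 metallothioneins were all higher in value without inhibitors in mural-like cells, and none passed the test. This class was named by markers of pericytes and smooth muscle. Of its 341 cells, 167 lay in a cluster that also passed all 8 endothelial markers. Mt1 was at 1022 and 935 CPM without inhibitors and 716 and 725 with them, Mt2 at 334 and 282 against 186 and 199, and Mt3 at 229 and 216 against 102 and 142. None of the 3 overlapped, beside 13.4% of genes in that class that were higher in this way. Log2 fold changes were 0.49 ± 0.15, 0.71 ± 0.21 and 0.88 ± 0.25, with unadjusted p of 0.00376, 0.00267 and 0.00148 and adjusted p of 0.433, 0.364 and 0.293 (edgeR), where 0.108% of genes passed. Cdkn1a in the same cells was at 408 and 434 against 316 and 284 CPM (0.54 ± 0.18, adjusted p = 0.472), and its fold change was 0.10 with the stricter cell filter and 0.16 with finer clustering.

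Markers of other cells were not level across these mural-like sums. The 11 astrocyte markers summed to 802 and 524 CPM without and 358 and 399 with inhibitors. Haemoglobin and other erythrocyte markers were at 40318, 1416, 5656 and 6248 CPM and 8 choroid plexus markers at 13568, 2301, 1242 and 2366, each highest in animal 1 of the group without inhibitors. The 8 endothelial markers were level between the groups but high, at 11262 to 12377 CPM. The 9 mural markers summed to 13431 to 16834 CPM in this class. The part of these markers in the metallothionein values was not tested. Without that animal, Mt1 had a log2 fold change of 0.41 (adjusted p = 0.621). With a stricter filter on cells Mt1 passed in mural-like cells (0.88, adjusted p = 0.00405 by edgeR). Another alternative, chosen after the data were seen, left out the mural-like cluster that also passed for endothelial markers. There the 3 fold changes were 0.70, 0.94 and 1.57, and none of the 3 passed. Mt2 and Mt3 passed in none of the 15 alternatives, and Mt1 passed with the stricter filter alone.

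In choroid plexus-like cells the direction was the opposite. By the interaction test (edgeR) the adjusted p was 0.542 for Mt3, 0.641 for Mt1 and 0.992 for Mt2. A group effect that differed among classes was therefore not shown for the metallothioneins. Mt3 was at 2912 and 2934 CPM without inhibitors and 4505 and 4331 with them, so both animals with inhibitors were above both others. The log2 fold change was -0.41 ± 0.09 (adjusted p = 0.00416 by edgeR), under the fold limit, in a class where 4.4% of genes passed and 36.1% were lower without overlap. Total UMIs as the only scaling gave -0.60, which passed, and without animal 2 of the group without inhibitors the adjusted p was 0.117. Mt1 was at 668 and 918 against 967 and 1303 CPM, also without overlap (-0.31 ± 0.12 on the log2 scale, adjusted p = 0.147), and ran from -0.54 without animal 1 to -0.10 without animal 2 of the group with inhibitors.

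Several values of this class moved with the groups. The 8 choroid plexus markers, led by the transthyretin gene, summed to 362540 and 280680 CPM without and 225790 and 214920 with inhibitors, and median UMIs per cell were 2714 and 2378 against 1924 and 1327. A cluster of 33 very deep cells led by Prlr and Kl had 10 and 16 cells without and 4 and 3 with inhibitors. In the remaining cluster of 587 cells alone, Mt3 was at 3174 and 3342 CPM against 4755 and 4808, still without overlap. What part the marker level and depth had in the Mt3 values was not tested.

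Astrocyte-like and ependymal-like cells, the richest in metallothioneins, gave small fold changes. Mt1 in astrocyte-like cells was at 10773 and 12125 CPM without and 11598 and 12806 with inhibitors, which overlapped (log2 fold change -0.10 ± 0.09). In ependymal-like cells it was at 9718 and 10536 against 10452 and 10243 CPM (-0.03 ± 0.13). Mt2 and Mt3 lay between -0.14 and -0.01 in both classes. No gene of any kind passed there (0% of 8363 and 0% of 3999 genes).

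Cdkn1a had fold changes of opposite sign in its 2 richest classes, and neither passed. In endothelial-like cells it was at 719 and 590 CPM without and 814 and 827 with inhibitors, without overlap, with a log2 fold change of -0.32 ± 0.10 (unadjusted p = 0.00473, adjusted p = 0.724), where 0.0362% of genes passed. The mural-like value given above was 0.54 ± 0.18. Most Cdkn1a UMIs of that class lay in its cluster that also passed the endothelial markers. The interaction over all 9 classes had an adjusted p of 0.101 for Cdkn1a. In oligodendrocyte-like cells its log2 fold change of 0.78 (adjusted p = 0.516) rested on animal 2 of the group without inhibitors, at 86.0 CPM against 25.03 to 39.6 in the other 3, and was -0.02 without that animal. Mt3 in endothelial-like cells was at 227 and 272 against 184 and 209 CPM (0.38 ± 0.13, adjusted p = 0.755).

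Small classes gave little resolution. In macrophage/monocyte-like cells Mt1 was at 1383, 1117, 426 and 1225 CPM, overlapping (0.53 ± 0.52), where 0.414% of genes passed. The 5 neutrophil markers summed to 6762.9, 15009, 0 and 13127 CPM in this class, beside 14964 to 22617 for its own 10 markers. Animal 1 of the group with inhibitors, at 0 for neutrophil markers, was also the lowest in Mt1. The part of neutrophil markers in any value of this class was not tested. In neuron-like cells, where 0.0286% of genes passed, Mt2 was at 225 and 247 against 193 and 122 CPM without overlap (0.60 ± 0.43, adjusted p = 1.00). Pdk4 could be tested in astrocyte-like cells alone, with a log2 fold change of 0.09 ± 0.36.

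**Figure D5:**
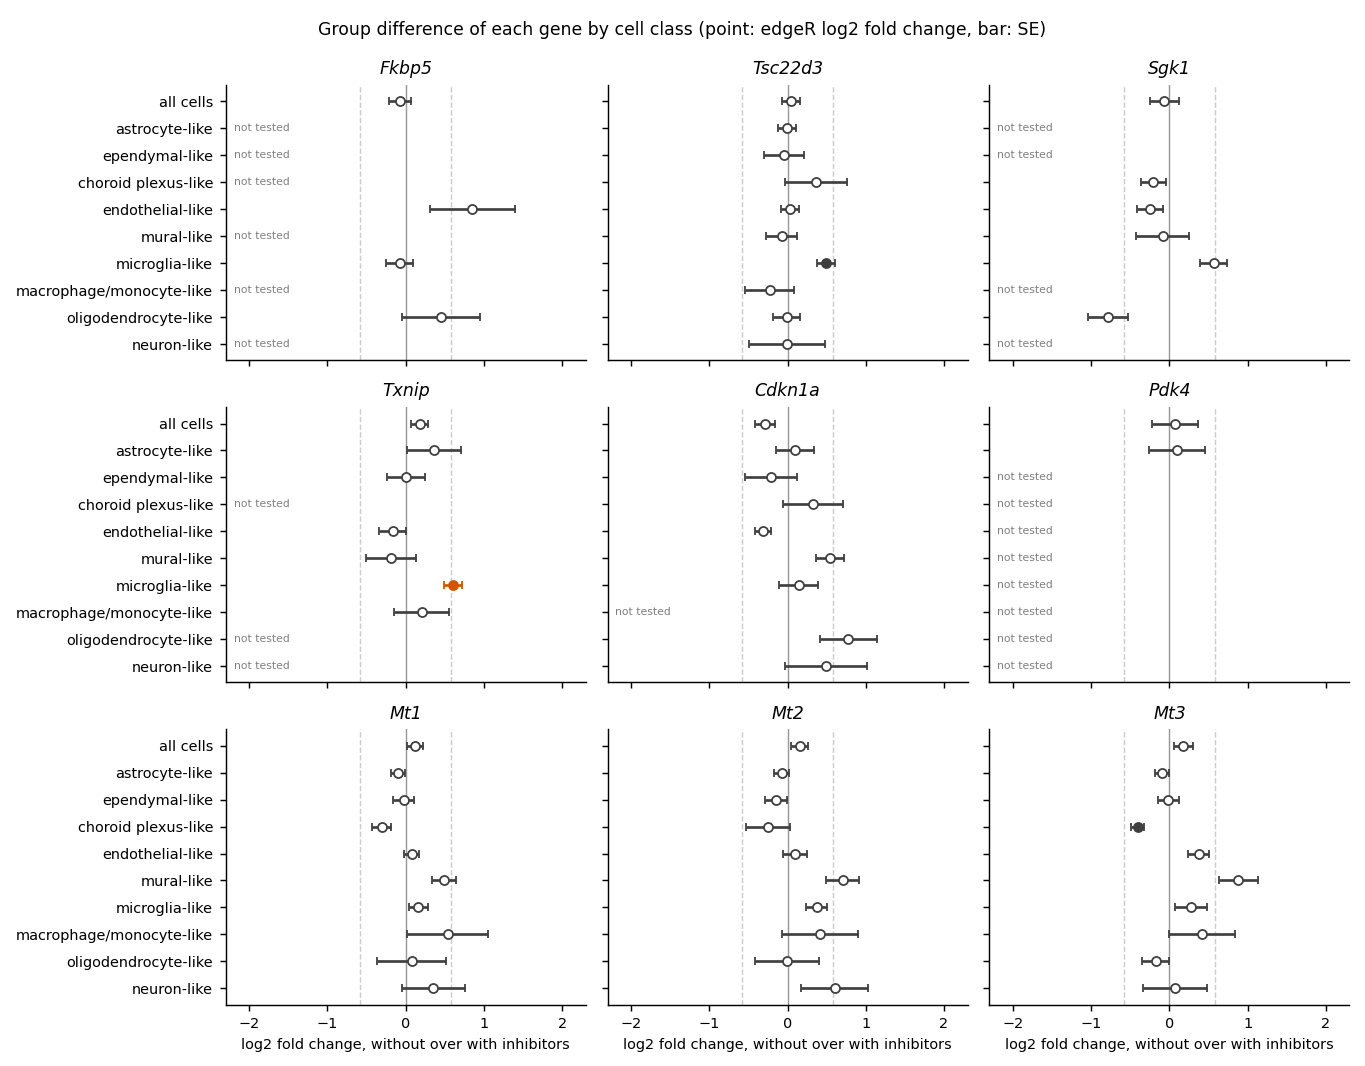
Log2 fold change, without over with inhibitors, of each member in each class in which it was tested, with bars of 1 SE and dashed lines at the fold limit of 0.58 in either direction. Orange marks the pair that passed, Txnip in microglia-like cells, and filled black the pairs with an adjusted p under 0.05 inside the limit, Tsc22d3 in microglia-like and Mt3 in choroid plexus-like cells.

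Few genes that surround the members in their pathways passed. Of 10 genes of the glucocorticoid receptor machinery (the receptor, its chaperones, coregulators and hormone-converting enzymes), all were tested in all cells and 0 passed by edgeR, with 0 at an unadjusted p under 0.05. The smallest p there were those of Hsd11b1, which regenerates active hormone inside cells (0.33 ± 0.15, adjusted p = 0.752), and of the corepressor gene Ncor1 (-0.16 ± 0.11, adjusted p = 0.853). In single classes none of the 10 passed either, and 2 each in choroid plexus-like, microglia-like and oligodendrocyte-like cells had an unadjusted p under 0.05, of 6, 8 and 8 tested, beside the shares of all genes given above (19.3%, 6.4% and 9.49%). Of 20 other glucocorticoid-induced genes, the one that passed was Dusp1, a phosphatase that dampens MAP kinases and is also an early stress gene on both activation lists. In microglia-like cells it had 390 and 306 UMIs without and 9 and 4 with inhibitors (log2 fold change 5.67 ± 0.26), and in macrophage/monocyte-like cells 43 and 70 UMIs against 0 and 0. An unadjusted p under 0.05 (edgeR) was reached by 5 of 20 in all cells, 5 of 12 in endothelial-like and 3 of 13 in microglia-like cells. The shares of all genes there were 6.61%, 5.54% and 6.4%. Median log2 fold changes of the list were -0.10, -0.12 and 0.16. Each other class had 0 to 2 of these genes at that limit.

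Among 22 genes of zinc and copper handling, 1 passed in 1 class. Slc31a1, the copper importer, was at 302 and 251 CPM without and 170 and 198 with inhibitors in choroid plexus-like cells (0.79 ± 0.19, adjusted p = 0.0114), the class where Mt3 had the opposite sign. The call was lost in 4 of 15 alternatives: by DESeq2, with total UMIs as the only scaling (0.59, adjusted p = 0.0641), and without animal 1 of the group without (0.57, adjusted p = 0.0683) or with inhibitors (0.66, adjusted p = 0.142). None passed in all cells, where 4 of 22 had an unadjusted p under 0.05 beside 6.61% of all genes, nor in the other 8 classes. For the 18 genes of thioredoxin, glucose sensing and pyruvate dehydrogenase, 0 passed by edgeR in all cells or in any class, with 1 in all cells at an unadjusted p under 0.05, Dlat, a subunit of the dehydrogenase complex (0.33 ± 0.14, adjusted p = 0.744). Pdp1, a phosphatase that reverses the action of Pdk4 and its relatives, had the next smallest p (-0.42 ± 0.21, adjusted p = 0.806). In microglia-like cells, where Txnip differed, the median of 17 such genes was -0.05.

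Of 21 p53 targets and Cip/Kip inhibitors, the family of Cdkn1a, 2 passed in single classes. Btg2, an antiproliferative gene that is also on the activation list chosen on these libraries, was at 764 and 571 CPM without and 258 and 223 with inhibitors in microglia-like cells (1.504 ± 0.11, adjusted p = 1.29e-21). Gadd45g, a growth arrest and DNA damage gene, was at 76.3 and 111 against 188 and 180 CPM in choroid plexus-like cells (-0.78 ± 0.20, adjusted p = 0.0212). That call was lost in 4 of 15 alternatives: by DESeq2, with the stricter cell filter (adjusted p = 0.0942), and without animal 1 of the group without (0.0960) or with inhibitors (0.202). Both of these and Cdkn1c, a relative of Cdkn1a, passed in the interaction, Cdkn1c in 6 of 13 alternatives and Gadd45g in 11 of 13. In mural-like cells 4 of 11 tested had an unadjusted p under 0.05, beside 6.53% of all genes there, and none passed, with a median of 0.40.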

How the data were processed

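Whole brains of 4 mice were profiled by 10x Genomics 3′ version 2 chemistry, 1 library per animal. The authors deposited raw UMI counts per gene and barcode, made with Cell Ranger 3.0.0 on mm10, and totals per library were 5134359 to 7529804. Of 12487 barcodes, 10067 had at least 400 genes and at most 20% mitochondrial UMIs, and 206 scored as doublets were removed. Cells were clustered (leidenalg 0.10.2, resolution 1) without 131 listed genes, the members included, and classes were named from fixed marker lists. The members, the other gene lists and the markers were chosen with earlier results of these data known. Summed counts per animal were tested with edgeR 4.0.16 (R 4.3.3) by glmQLFTest with TMM scaling, after filtering low counts, and p-values were Benjamini-Hochberg adjusted over all genes tested. Genes were called where the adjusted p was below 0.05 and the log2 fold change lay beyond 0.58 in either direction. With 2 animals per group an exact two-sided permutation test of 1 gene cannot give a p below 0.333, so none was used. The p-values of single comparisons rest on a spread between these animals that was moderated across genes. Those of the interaction rest on what remained among class sums after each animal was taken as a block. They leave out differences between animals that are common to all classes. DESeq2 1.42.0, other scalings, filters, clusterings and leaving out each animal were the alternatives. The test of single comparisons was run on simulated counts for all cells, microglia-like and astrocyte-like cells, at a fixed dispersion of 0.02. Of genes changed 4-fold, 96%, 98% and 92% passed, and of genes changed 2-fold 68%, 45% and 41%. Unchanged genes that passed numbered 5, 5 and 0. The interaction test was not simulated. The 9 members were named, with the 3 genes most like each, the genes of each pathway list that passed and, where none did, the 2 with the smallest p in all cells. The 34 activation genes are given as counts except where they are on another list.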

Additional observations from a re-analysis of the deposited data

Results flagged for a closer look

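Groups of 2 animals are too small to test for a single library far from the rest. The group effect of 5 genes differed among the 9 cell classes by the interaction test (edgeR, adjusted over 12452 genes): the member Sgk1 with an adjusted p of 1.503e-07, and, from the pathway lists, Dusp1 with 2.98e-100, Btg2 with 1.23e-17, Gadd45g with 8.06e-05 and Cdkn1c with 0.0282. The Cdkn1c call was lost in 7 of 13 alternatives, among them leaving out animal 1 of the group without inhibitors (adjusted p = 1.00) or either animal with inhibitors (0.691 and 0.864). Gadd45g lost its call with the stricter cell filter (0.155) and without animal 1 of the group with inhibitors (0.351), and Sgk1 without animal 2 of that group (0.385). Dusp1 and Btg2 are on the activation list that was selected with these 4 libraries and passed in microglia-like cells, and Gadd45g passed in choroid plexus-like cells with higher values under inhibitors. Sgk1 had the opposite sign in microglia-like and oligodendrocyte-like cells (log2 fold changes 0.57 and -0.78), and passed in neither class alone, although it passed in 3 of 15 alternatives in microglia-like and 5 of 15 in oligodendrocyte-like cells.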

How the results depend on the processing

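No member passed in the sum of all cells under any of 12 alternatives. For single classes, where 1 pair of gene and class passed, DESeq2 called 0, while no filter on low counts, no robust shrinkage, a stricter cell filter and no doublet removal each gave 2 and leaving out 1 animal gave 2 to 3. The fit with a replicate block gave 2, Txnip in microglia-like and Sgk1 in oligodendrocyte-like cells (-0.82, adjusted p = 1.26e-08). Animals with the same number were not paired by the labels, and their deviations over all genes correlated at r = 0.07. The block was therefore not used for the report. Yet olfactory ensheathing-like cells numbered 29 and 32 in the animals numbered 1 and 0 in both animals numbered 2. Sgk1 in oligodendrocyte-like cells was also higher in animal 1 of each group. Whether animals with the same number shared a step of handling was not tested. For the interaction, where 1 member passed, RLE normalization and total UMIs alone gave 2, with Mt3 added, keeping the listed genes in clustering gave 2, with Cdkn1a added, and leaving out 1 animal gave 0 to 2. The interaction fit already held each animal as a block, and no DESeq2 or replicate-block version of it was run.

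Leaving out each animal in turn moved Sgk1 in all cells from -0.35 to 0.17, in endothelial-like cells from -0.52 to 0.088 and in mural-like cells from -0.37 to 0.23. It turned sign without animal 2 of the group without inhibitors in all 3, and without animal 1 of the group with inhibitors in all cells (0.07) and mural-like cells. In mural-like cells the stricter cell filter (0.39) and no doublet removal (0.10) turned it too. Cdkn1a in oligodendrocyte-like cells ran from -0.022 to 1.34, the lowest without animal 2 of the group without inhibitors. Sgk1 ran from 0.25 to 0.84 in microglia-like and from -1.14 to -0.49 in oligodendrocyte-like cells. The cause of these changes was not tested. Over 30 single results and 431 settings, 385 were unchanged, 21 lost the call, 17 gained it and 8 turned sign. The unchanged ones include results that passed neither in the main setting nor in the alternative. For interaction results the call alone was compared. Total UMIs alone moved the median of all genes by -0.18 in choroid plexus-like cells. The class in which each member led, by share of cells with a UMI at 1000 UMIs per cell, was the same for 6 of 9 at 500 UMIs and 7 of 9 at 2000, and by level for 8 of 9 with the stricter filter. Sparse counts limit Fkbp5, which could be tested in 3 classes with an SE of up to 0.54, and Pdk4, which could be tested in 1.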

Other observations

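Classes with fewer than 20 cells in some animal were not compared between groups, and some of their values are given here. Oligodendrocyte precursor-like cells, 14 to 29 per animal, had Sgk1 at 465 and 383 CPM without and 372 and 247 with inhibitors, from 65 UMIs in all. That level was like that of oligodendrocyte-like cells, but the order of the groups was the opposite and was not tested. Fibroblast-like cells had Tsc22d3 at 538, 681, 674 and 610 CPM, near the astrocyte-like level, beside the high Fkbp5 described above. Their Mt1 was at 1883 and 3257 CPM without and 1409 and 2333 with inhibitors, and the groups overlapped. In neural progenitor-like cells Mt1 ran from 336 to 581 CPM from 110 UMIs and Mt2 from 95.9 to 407 CPM from 56 UMIs.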
